A study of Mus musculus with 5 samples.

Results

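Enzymes that make serine and glycine and pass their carbon to folate were followed in mouse embryonic stem (ES) cells with and without C3G, a guanine nucleotide exchange factor encoded by Rapgef1. The genes were listed by enzyme role, with Phgdh, Psat1 and Psph for serine synthesis, Shmt1 and Shmt2 for the exchange of serine and glycine, Gldc and Gcat for glycine turnover, and Mthfd1, Mthfd2 and Mthfd1l for the folate cycle. They are 10 of 55147 gene symbols, and all 10 were among the 12518 genes with enough signal to be tested. RNA was measured in 3 samples of WT cells, the parental E14Tg2a line, and in 2 samples of C3G null cells, E14Tg2a cells in which a cassette of the EF1α promoter and puromycin resistance replaced early exons of Rapgef1 by CRISPR knock-in. Cells of both genotypes were kept untreated on gelatin in GMEM with serum and LIF, a cytokine that holds mouse ES cells undifferentiated. The samples were described as independent, and the p-values below measure the spread between these samples only. Which null clone each C3G null sample came from is not given in the sources used here, and vector control cells were not analysed here, so that loss of C3G and the history of a selected clone cannot be told apart.

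Serine is made from an intermediate of glycolysis by Phgdh, Psat1 and Psph in turn, and serine hydroxymethyltransferase moves a carbon of serine to tetrahydrofolate, which leaves glycine. The folate-bound carbon serves the synthesis of purines, thymidylate and methionine, and it passes between mitochondria and cytosol as formate. Mouse ES cells are known for high threonine dehydrogenase activity, the first step of threonine breakdown to glycine and acetyl-CoA, of which Gcat catalyses the next step.

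Expression was given in TPM, a transcript level that is corrected for length and adds up to the same total in every library. Read numbers cannot be recovered from TPM, and no counting error can be attached to a value. Genes of small non-coding RNA classes held 56.1, 57.1 and 61.9% of the TPM in WT 1 to 3 and 73.2 and 62.3% in C3G null 1 and 2. Protein-coding genes held 31.8, 31.4 and 28.8% in WT and 18.6 and 26.0% in C3G null cells. C3G null 1 thus had the smallest protein-coding share of the 5 samples, and a smaller share lowers the TPM of every protein-coding gene by construction. All values were therefore also divided by size factors, the median over genes of the ratio between a sample and the geometric mean of the samples (median-of-ratios scaling). The size factors were 1.33, 1.22 and 1.10 in WT 1 to 3 and 0.619 and 0.906 in C3G null 1 and 2. Over all tested genes the log2 fold change, C3G null over WT, had a median of -0.55 as deposited and 0.0052 after scaling, and those below are from scaled TPM unless stated otherwise. How much of the shift in small RNA reflects the cells and how much the libraries was not tested.

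Genes were compared with limma on log2(scaled TPM + 1), two-sided, with Benjamini-Hochberg adjustment over the 12518 genes that had at least 1 TPM in at least 2 samples, and a gene was called at an adjusted p under 0.05. The added 1 shrinks the fold changes of genes with few TPM. The targeted gene, Rapgef1 (ENSMUSG00000039844, chromosome 2 from 29619720 to 29740978, GRCm38), had 11.6, 10.3 and 9.64 TPM in WT and 3.92 and 5.55 TPM in C3G null cells. Both C3G null samples were below all WT samples, also after scaling, where the values were 8.66, 8.45 and 8.73 in WT and 6.34 and 6.13 in C3G null cells. The sum over the gene includes exons downstream of the replaced part, which can still be transcribed, so it checks the labels only in part. The scaled log2 fold change was -0.41 (SE 0.059, adjusted p = 0.00444 from limma), and it was no longer called (-0.15) once trends of expression with GC content and transcript length had been removed.

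Identity as ES cells was checked with markers. All 8 ES cell markers (Pou5f1, Sox2, Nanog, Esrrb, Zfp42, Dppa5a, Tdgf1 and Utf1) were tested, and together they had 2223, 2345 and 2295 TPM in WT and 1771 and 2311 TPM in C3G null cells, most of it from Dppa5a. After scaling the sums were 1665, 1922 and 2079 in WT and 2862 and 2551 in C3G null cells, with both C3G null samples above WT, whereas the deposited sums overlapped. All 8 scaled fold changes were positive, Dppa5a was called higher in C3G null cells and the other 7 were not called. As deposited, Dppa5a was at 0.0084, the other 7 were negative and none was called by limma, with a median of -0.51. Markers of other cell types were low in both groups beside these, and they differed in both directions. The 4 mesoderm markers summed to 6.75, 4.90 and 5.03 TPM in WT and 0.720 and 1.59 TPM in C3G null cells, with T (Brachyury) the most abundant at 5.67, 3.99, 4.30, 0.560 and 1.32 TPM. The 6 trophoblast markers summed to 9.78, 8.29 and 7.38 TPM in WT and 1.66 and 2.66 TPM in C3G null cells. Krt7 led them in WT, and Eomes, at 1.01 and 2.01 TPM, led them in C3G null cells. The 8 fibroblast markers summed to 6.39, 5.76 and 4.60 TPM in WT and 1.81 and 2.99 TPM in C3G null cells. Thy1 led them in all samples but C3G null 2, where Pdgfra was more abundant. In these 3 lists the sums of both C3G null samples were below all WT samples, also after scaling, and T, Krt7, Cdx2, Thy1 and Col1a1 were called lower. Pdgfra, a fibroblast marker too low to be tested, went the other way, with 0.470, 0.390 and 0.5 TPM in WT and 0.750 and 1.49 TPM in C3G null cells. For the trophoblast marker Eomes the groups overlapped after scaling, and it was not called (log2 fold change 0.02). The 4 neural markers, led by Tubb3, summed to 26.4, 23.6 and 23.0 TPM in WT and 17.1 and 23.4 TPM in C3G null cells. The 8 extraembryonic endoderm markers summed to 5.97, 5.30 and 4.74 TPM in WT and 5.58 and 10.2 TPM in C3G null cells. Dab2 led them in all samples but C3G null 1, where Cubn was more abundant. In both the neural and the endoderm list the deposited sums overlapped. After scaling the groups were apart, with neural sums of 19.8, 19.3 and 20.8 in WT and 27.6 and 25.9 in C3G null cells, and endoderm sums of 4.47, 4.34 and 4.29 in WT and 9.02 and 11.3 in C3G null cells. Tubb3 (log2 fold change 0.93), Dab2 (0.69) and Cubn (1.31) were called higher and Nes (-1.28) lower, and Cubn was also called higher as deposited.

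In bulk RNA, fewer cells of a type and less RNA per cell cannot be told apart, and the part of these other cell types in the results below was not tested.

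Of the 10 serine, glycine and one-carbon genes, 3 were called higher in C3G null cells (Gcat, Gldc and Mthfd1l), none was called lower by limma and 7 were not called. Among all tested genes, 14.1% were called higher and 16.6% lower. At an unadjusted p under 0.05 the counts were 4 higher and 0 lower. The share of all tested genes at that looser threshold was not counted, so these counts have no background. The median log2 fold change of the 10 genes was 0.13, with 6 positive values, beside 0.0052 for all tested genes. Both C3G null samples were above all WT samples for 6 of the 10 genes and below them for 1, Shmt2, where 29.5% of all tested genes had the first pattern and 29.3% the second. With TPM as deposited the picture turned, with 0 genes called higher and 4 lower (Shmt2, Phgdh, Mthfd1 and Psph) and a median of -0.52. On that scale 1.45% of all tested genes were called higher and 56.8% lower. The number of falls as deposited depended on the samples, with 0 called without WT replicate 1, 0 without WT replicate 2 and 1 without WT replicate 3. The falls over all genes dropped alike, from 7109 of 12518 to 2556 of 12035, 2146 of 12111 and 5045 of 12401. The fold changes moved less than the calls when a WT sample was left out, Shmt2 for example from -0.86 to -0.77 without WT replicate 1. Without C3G null replicate 1 the deposited median of the 10 genes was -0.28, beside -0.34 for all tested genes. Without C3G null replicate 2 it was -0.77, beside -0.76 for all tested genes. The prior degrees of freedom of the deposited fit were infinite, also with a WT sample left out. Its p-values then do not draw on the spread of each gene, whereas the scaled fit had 3.11 prior beside 3 residual degrees of freedom. Without C3G null replicate 1 or 2 the deposited fit had 5.24 and 5.08 prior degrees of freedom, so it weighed the spread of genes otherwise. The scaled TPM of the 10 genes added up to 239.9, 247.4 and 261.7 in WT and 275.8 and 275.4 in C3G null cells, with the C3G null samples above WT, whereas the deposited sums were 320.3, 301.8 and 288.9 in WT and 170.7 and 249.5 in C3G null cells, with the C3G null samples below.

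**Figure D1:**
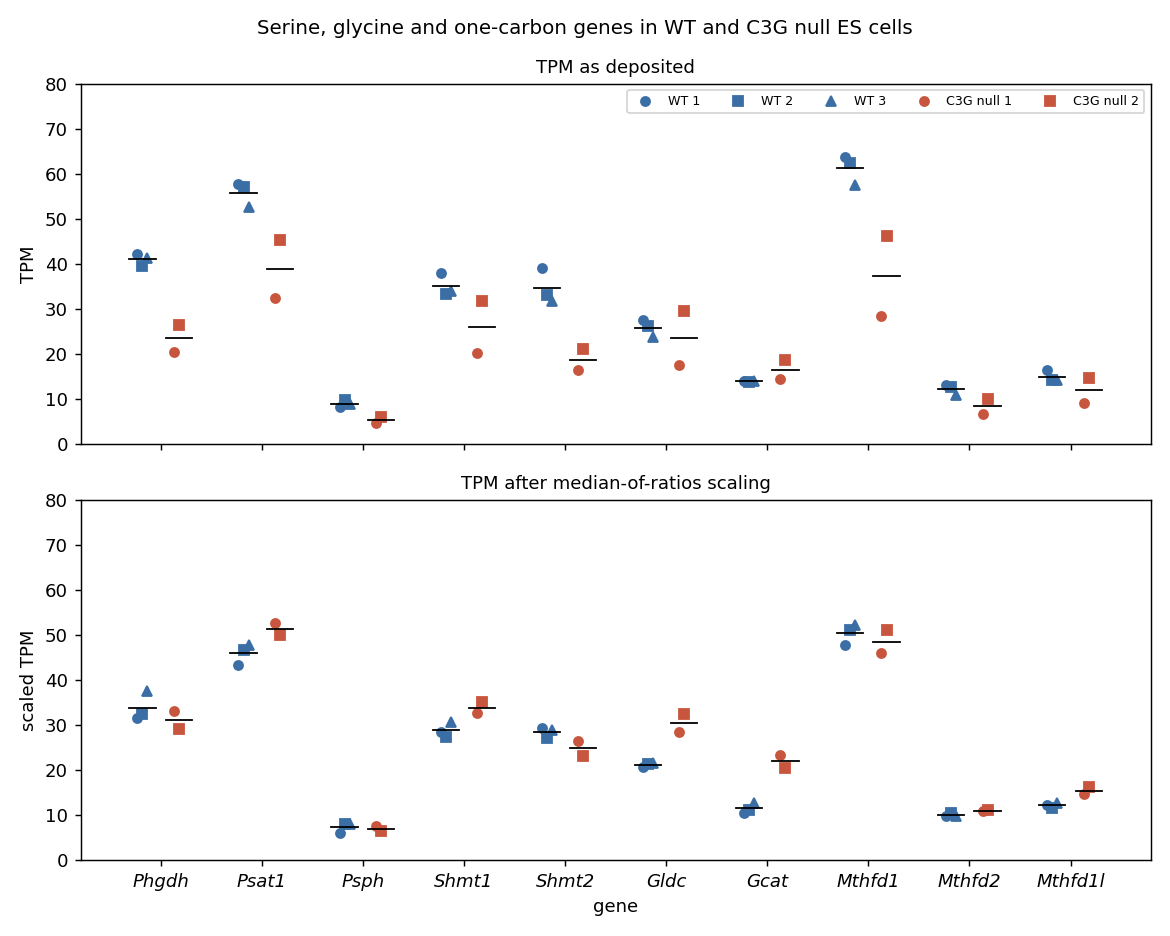
TPM of the 10 genes as deposited (upper panel) and after median-of-ratios scaling (lower panel), with 1 point per sample, blue for the 3 WT and red for the 2 C3G null samples, and a black line at each group mean. As deposited most red points lie below the blue ones, for Phgdh at 20.5 and 26.4 TPM, while after scaling Gcat (23.4 and 20.5) and Gldc (28.5 and 32.5) lie above all WT points.

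**Figure D2:**
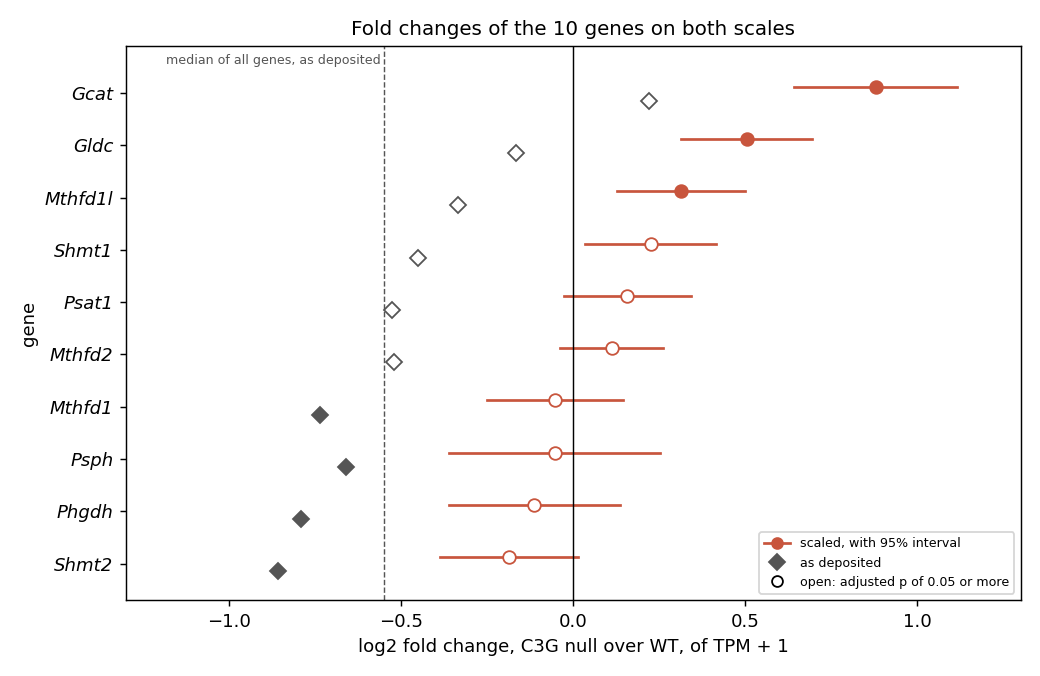
Log2 fold change of each gene, C3G null over WT, from limma on log2(TPM + 1), with circles and 95% confidence intervals for scaled TPM and diamonds for TPM as deposited, filled where the adjusted p was under 0.05. The dashed line marks the median of all tested genes as deposited at -0.55, and genes such as Gldc change sign with the scale (0.50 scaled, -0.17 as deposited).

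The genes of serine synthesis gave no call after scaling. Phgdh (ENSMUSG00000053398, chromosome 3 from 98313170 to 98339990), the dehydrogenase of the first step, had 42.2, 39.5 and 41.4 TPM as deposited in WT and 20.5 and 26.4 TPM in C3G null cells. After scaling these became 31.6, 32.4 and 37.5 in WT and 33.1 and 29.2 in C3G null cells. The deposited values left a wide gap between the groups, and after scaling the groups overlapped. The scaled log2 fold change was -0.11 (95% confidence interval -0.36 to 0.13, adjusted p = 0.437 from limma), -0.20 without C3G null replicate 1 but -0.02 with C3G null replicate 2 left out, and the deposited one was -0.79 (adjusted p = 0.0107), 0.24 under the median of all genes on that scale. Psph (ENSMUSG00000029446, chromosome 5 from 129765558 to 129787449), the phosphatase of the last step, was the least expressed of the 10 genes in both groups, with 8.15, 9.74 and 8.85 TPM in WT and 4.65 and 5.92 TPM in C3G null cells. Its scaled values of 6.11, 7.99 and 8.02 in WT enclosed those of C3G null cells, 7.52 and 6.54, and WT 1 was the lowest of the 5. The scaled log2 fold change was -0.05 with a wide interval from -0.36 to 0.25 (adjusted p = 0.776 from limma), against -0.66 as deposited (adjusted p = 0.0174). The start of Psph overlaps the more abundant gene Cct6a, and strand use in the counting was not stated, so reads from the shared stretch may have gone to either gene.

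Psat1 (ENSMUSG00000024640, chromosome 19 from 15904678 to 15947337), the aminotransferase between them, had 57.8, 57.05 and 52.7 TPM as deposited in WT and 32.5 and 45.3 TPM in C3G null cells. After scaling it had 43.3, 46.8 and 47.7 in WT and 52.6 and 50.02 in C3G null cells. The C3G null samples thus lay below WT on the first scale and above WT on the second, and the scaled log2 fold change of 0.16 (95% confidence interval -0.03 to 0.34, adjusted p = 0.167 from limma) was not called, against -0.53 as deposited. Its transcripts did not keep their proportions. Psat1 has 2 coding transcripts with starts 437 bases apart, and the one from the upstream start held 57.7, 61.6 and 69.9% of the gene in WT and 83.3 and 72.7% in C3G null cells. The one from the downstream start held 36.4, 34.2 and 26.3% in WT and 12.1 and 22.1% in C3G null cells. The shares of both transcripts were apart between the groups, with C3G null 1 farthest from WT and WT 3 the nearest of the WT samples to C3G null 2. The upstream share ranked the samples as the small non-coding share of the TPM did, also within WT. That share was 56.1, 57.1 and 61.9% in WT 1 to 3 and 73.2 and 62.3% in C3G null 1 and 2. The part of library composition in the transcript shares was not tested. In scaled TPM, the upstream transcript had 24.96, 28.8 and 33.4 in WT and 43.8 and 36.4 in C3G null cells. The downstream transcript had 15.7, 16.0 and 12.6 in WT and 6.34 and 11.04 in C3G null cells. After scaling the upstream transcript was thus higher and the downstream one lower in both C3G null samples than in any WT sample, which is a description without a test, since the division of reads among transcripts with shared exons is an estimate.

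The RefSeq promoter table (GRCm38.p6, the C57BL/6J reference, whereas E14Tg2a comes from another mouse strain) holds a window for each of these starts, on the minus strand at chr19:15925010-15925309 and chr19:15924573-15924872. Both windows have 250 bases before the start and 50 bases after it, and they are shown because the 2 transcripts with differing shares begin there. Capitals mark the transcribed 50 bases.
Psat1 upstream start: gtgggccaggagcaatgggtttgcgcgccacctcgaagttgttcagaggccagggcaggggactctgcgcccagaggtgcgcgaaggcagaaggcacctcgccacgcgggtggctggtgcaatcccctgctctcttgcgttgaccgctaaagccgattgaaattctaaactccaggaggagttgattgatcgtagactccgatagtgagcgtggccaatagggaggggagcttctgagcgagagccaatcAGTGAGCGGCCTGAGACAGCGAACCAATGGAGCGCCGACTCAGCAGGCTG
Psat1 downstream start: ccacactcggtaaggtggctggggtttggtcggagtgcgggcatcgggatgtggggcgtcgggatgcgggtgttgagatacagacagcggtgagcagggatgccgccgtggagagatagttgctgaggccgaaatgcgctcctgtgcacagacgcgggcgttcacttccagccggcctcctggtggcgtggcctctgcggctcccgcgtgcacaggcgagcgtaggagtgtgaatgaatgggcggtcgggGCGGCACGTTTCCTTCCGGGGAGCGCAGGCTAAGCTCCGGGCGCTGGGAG

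Serine hydroxymethyltransferase is encoded for the cytosol by Shmt1 and for mitochondria by Shmt2, and after scaling the pair had fold changes of opposite sign, without a call for either. Shmt1 (ENSMUSG00000020534, chromosome 11 from 60788104 to 60811718) had 38.0, 33.4 and 33.9 TPM as deposited in WT and 20.2 and 31.8 TPM in C3G null cells. Scaling gave 28.5, 27.4 and 30.7 in WT and 32.7 and 35.1 in C3G null cells. Both C3G null samples were above WT after scaling, with a log2 fold change of 0.22 (95% confidence interval 0.03 to 0.41) that missed the threshold (adjusted p = 0.0744 from limma), and below WT as deposited (-0.45, adjusted p = 0.126). Its most abundant coding transcript held 35.8, 36.6 and 38.8% of the gene in WT and 46.8 and 47.3% in C3G null cells. Its share was higher in both C3G null samples than in any WT sample. The rest of Shmt1 came mostly from a processed transcript annotated as non-coding, at 9.24, 10.9 and 10.6 TPM in WT and 4.98 and 4.84 TPM in C3G null cells, and from transcripts with retained introns. After scaling the groups overlapped for the processed transcript, at 6.92, 8.98 and 9.56 in WT and 8.05 and 5.34 in C3G null cells. The 3′ end of Shmt1 overlaps Smcr8, which limits how well reads there can be assigned.

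Shmt2 (ENSMUSG00000025403, chromosome 10 from 127517123 to 127522444) had 39.1, 33.1 and 31.8 TPM as deposited in WT and 16.4 and 21.1 TPM in C3G null cells. Scaled values were 29.3, 27.2 and 28.8 in WT and 26.6 and 23.2 in C3G null cells. It was the member with the lowest log2 fold change on both scales, and its C3G null samples were below all WT samples on both. The scaled value of -0.19 (95% confidence interval -0.39 to 0.01, adjusted p = 0.135 from limma) was not called, and with a sample left out it lay between -0.28 (C3G null replicate 1 out) and -0.09 (C3G null replicate 2 out). Correcting for length and GC content brought it to -0.08 (adjusted p = 0.459). With protein-coding TPM rescaled it was called lower (-0.41, adjusted p = 0.0169 from limma), as were Phgdh (-0.34, adjusted p = 0.0265) and Mthfd1 (-0.28, adjusted p = 0.0471). As deposited the value of Shmt2 was -0.86 (adjusted p = 0.00539), 0.31 under the median of all genes. The 3′ end of Shmt2 shares a short stretch with the 3′ end of Ndufa4l2, which was called higher in C3G null cells (3.02, 2.66 and 3.25 scaled TPM in WT and 8.05 and 7.41 in C3G null cells). Within each sample, where scaling cancels, the ratio of Shmt2 to Shmt1 was 1.03, 0.992 and 0.938 in WT and 0.812 and 0.663 in C3G null cells. The mitochondrial form thus had less RNA relative to the cytosolic form in both C3G null samples than in any WT sample, a pair chosen after the values were seen and therefore not tested.

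Glycine turnover held the 2 largest rises. Gcat (ENSMUSG00000006378, chromosome 15 from 79030874 to 79038353), the ligase that splits the product of threonine dehydrogenase into glycine and acetyl-CoA, had 14.1, 13.7 and 13.96 TPM as deposited in WT and 14.4 and 18.6 TPM in C3G null cells. After scaling it had 10.6, 11.2 and 12.7 in WT and 23.4 and 20.5 in C3G null cells. Gcat was the only member whose C3G null samples lay above all WT samples on both scales, narrowly for C3G null 1 as deposited. Its scaled mean was 1.91 times that of WT, with a log2 fold change of 0.88 (SE 0.097, 95% confidence interval 0.64 to 1.12, adjusted p = 0.00186 from limma). The call held with each of the 5 samples left out in turn, and as deposited the log2 fold change was 0.22 (adjusted p = 0.430), 0.77 above the median of all genes. Both coding transcripts took part, the longer one at 5.71, 6.15 and 7.06 scaled TPM in WT and 12.1 and 10.8 in C3G null cells, and the shorter one at 4.79, 5.02 and 5.59 in WT and 11.2 and 9.28 in C3G null cells. Each was higher in both C3G null samples than in any WT sample.

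Gldc (ENSMUSG00000024827, chromosome 19 from 30098447 to 30175429), the decarboxylase of the mitochondrial glycine cleavage system, had 27.5, 26.1 and 23.7 TPM as deposited in WT and 17.6 and 29.4 TPM in C3G null cells. As deposited, C3G null 1 was the lowest and C3G null 2 the highest of the 5 samples. After scaling it had 20.6, 21.4 and 21.5 in WT and 28.5 and 32.5 in C3G null cells, and both C3G null samples stood above the tight WT group. The scaled log2 fold change was 0.50 (SE 0.078, 95% confidence interval 0.31 to 0.69, adjusted p = 0.00587 from limma), and this call also held with each sample left out in turn. As deposited it was -0.17 (adjusted p = 0.564), so the direction of Gldc rests on the scaling.

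Other genes of this group did not all follow. Of the 6 genes of glycine cleavage and threonine breakdown, Gcat and Gldc included, 3 were called higher, 1 lower and 2 were not called, beside 14.1% higher and 16.6% lower among all tested genes. Gcsh, the lipoyl carrier protein of the cleavage system, rose from 32.2, 34.5 and 37.1 scaled TPM in WT to 43.8 and 43.5 in C3G null cells (log2 fold change 0.33, adjusted p = 0.0260 from limma), with no overlap between the groups, and turned to -0.35 as deposited. Its call ended without C3G null replicate 1 (adjusted p = 0.0854), C3G null replicate 2 (0.0807), WT replicate 1 (0.0505) or WT replicate 2 (0.0964), and Gcsh was called in 7 of 16 alternatives. Amt, the aminomethyltransferase, and Dld, the lipoamide dehydrogenase that also serves other complexes, had log2 fold changes of -0.08 and -0.04 and were not called. Tdh, the threonine dehydrogenase upstream of Gcat (ENSMUSG00000021953, chromosome 14 from 63492347 to 63509092), went the other way. It had 46.1, 41.8 and 45.4 TPM as deposited in WT and 16.5 and 21.2 TPM in C3G null cells, and 34.5, 34.3 and 41.1 against 26.6 and 23.4 after scaling. Both C3G null samples were below all WT samples on both scales, with a scaled log2 fold change of -0.53 (SE 0.11, adjusted p = 0.0149 from limma) that was no longer called without C3G null replicate 2 (-0.44, adjusted p = 0.0761). Tdh lies among genes that were also lower. Within 5 Mb on either side 47 of 56 other tested genes were called lower and 0 higher, with a median of -0.66, and the part of this neighbourhood in the fall of Tdh was not tested.

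The ratio of Gcat to Tdh within a sample was 0.306, 0.328 and 0.307 in WT and 0.876 and 0.879 in C3G null cells. It was the ratio with the widest gap among the 6 pairs computed, all chosen after the values were seen, with a log2 difference of 1.48, and it does not depend on the scaling of samples. Gldc to Phgdh was 0.652, 0.662 and 0.574 in WT and 0.860 and 1.11 in C3G null cells. Phgdh to Psat1 was 0.731, 0.692 and 0.785 in WT and 0.631 and 0.583 in C3G null cells. The groups were apart in both pairs, with Gldc higher relative to Phgdh, and Phgdh lower relative to Psat1, in the C3G null samples.

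**Figure D3:**
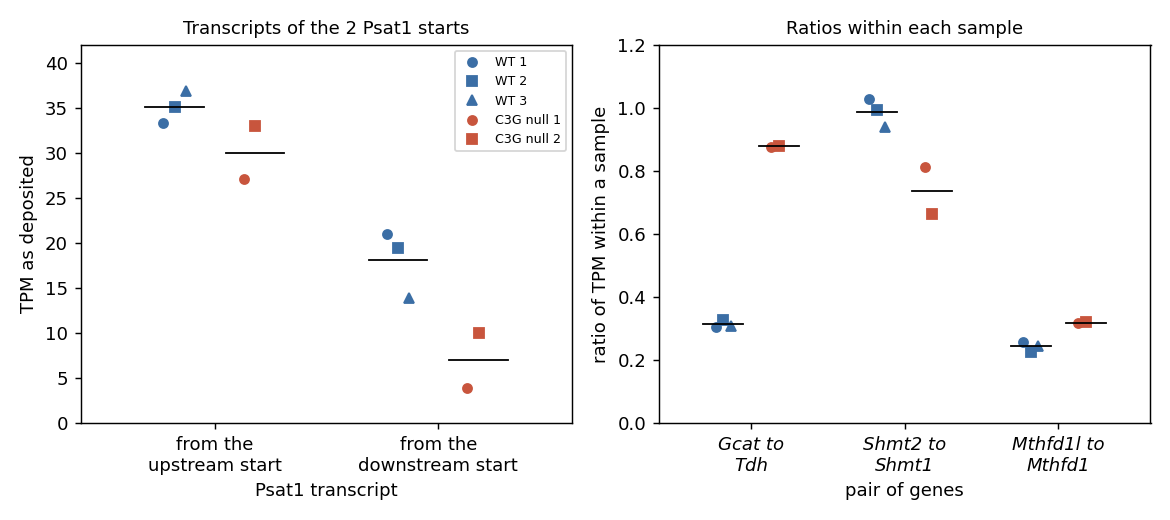
TPM as deposited of the transcripts from the 2 Psat1 starts (left) and ratios of TPM between pairs of genes within a sample (right), with 1 point per sample and a black line at each group mean. C3G null samples have 3.92 and 10 TPM of the downstream transcript, below the 3 WT samples, and ratios of Gcat to Tdh of 0.876 and 0.879, above 0.306 to 0.328 in WT.

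In the folate cycle, 1 of 3 genes was called, higher as were 14.1% of all tested genes. Mthfd1 (ENSMUSG00000021048, chromosome 12 from 76255298 to 76319803), the trifunctional enzyme of the cytosol, had the highest WT mean of the 10 genes, with 63.8, 62.3 and 57.5 TPM as deposited in WT and 28.4 and 46.2 TPM in C3G null cells. The scaled values were 47.8, 51.1 and 52.1 in WT and 46.0 and 51.0 in C3G null cells. The groups overlapped after scaling, with a log2 fold change of -0.05 (95% confidence interval -0.25 to 0.14, adjusted p = 0.653 from limma), while as deposited it was -0.74 (adjusted p = 0.0182). A weakly expressed antisense gene, Gm34868, lies within Mthfd1, at most 1.13 TPM in any sample. Mthfd2 (ENSMUSG00000005667, chromosome 6 from 83305691 to 83325908), the mitochondrial dehydrogenase and cyclohydrolase, had 13.1, 12.8 and 10.9 TPM as deposited in WT and 6.71 and 10 TPM in C3G null cells. Its scaled values were 9.80, 10.5 and 9.91 in WT and 10.9 and 11.04 in C3G null cells, above WT by little more than the spread of the WT samples. The log2 fold change of 0.11 (95% confidence interval -0.04 to 0.26, adjusted p = 0.218 from limma) was not called, and turned to -0.52 as deposited.

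Mthfd1l (ENSMUSG00000040675, chromosome 10 from 3973118 to 4167081), the mitochondrial synthetase that releases formate, had 16.5, 14.1 and 14.1 TPM as deposited in WT and 9.05 and 14.8 TPM in C3G null cells. After scaling it had 12.3, 11.6 and 12.8 in WT and 14.6 and 16.3 in C3G null cells. The groups overlapped as deposited, where C3G null 1 was the lowest sample, and were apart after scaling. The scaled log2 fold change was 0.31 (SE 0.077, 95% confidence interval 0.13 to 0.50, adjusted p = 0.0269 from limma), against -0.34 as deposited (adjusted p = 0.230). The call was the least secure of the 3, since it ended without WT replicate 1 (adjusted p = 0.0581), WT replicate 2 (0.106) or the filter on low TPM (0.0570). It also ended with protein-coding TPM rescaled (0.11, adjusted p = 0.412 from limma) and with a block for replicate numbers (0.34, adjusted p = 0.0533 from limma). Without C3G null replicate 2 the call ended as well, at a log2 fold change of 0.24. The ratio of Mthfd1l to Mthfd1 within a sample was 0.258, 0.227 and 0.246 in WT and 0.318 and 0.319 in C3G null cells. Mthfd2 to Mthfd1 was 0.205, 0.205 and 0.190 in WT and 0.236 and 0.217 in C3G null cells. Both mitochondrial genes thus had more RNA relative to the cytosolic gene in the C3G null samples than in any WT sample, again without a test.

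TPM are corrected for length, so levels can be set against each other between genes, here as sums over all transcripts of a gene, coding or not. For Shmt1 and Shmt2 the sums were close in WT, but their most abundant coding transcripts were not. That of Shmt1 had 13.6, 12.2 and 13.1 TPM as deposited in WT, and that of Shmt2 had 26.7, 24.3 and 23.1 TPM. As deposited in WT, mean TPM ran from 61.2 for Mthfd1 and 55.8 for Psat1, whose ranges over samples overlapped, through Phgdh (41.0), Shmt1 (35.1), Shmt2 (34.7), Gldc (25.8), Mthfd1l (14.9), Gcat (13.9) and Mthfd2 (12.3) to Psph (8.91). Apart from Mthfd1 and Psat1, and Shmt1 and Shmt2, neighbours in this order did not overlap between WT samples. In C3G null cells Psat1 (38.9) and Mthfd1 (37.3) still led and Psph (5.29) was still last, but Gcat (16.5) stood above Mthfd1l (11.9) and Gldc (23.5) beside Phgdh (23.5). Psat1 was above Mthfd1 in C3G null 1 (32.5 against 28.4) and below it in C3G null 2 (45.3 against 46.2). Gldc was below Phgdh in C3G null 1 (17.6 against 20.5) and above it in C3G null 2 (29.4 against 26.4). With only 2 samples that differed in their overall level, nearly all neighbours overlapped there, and only Mthfd2 and Psph were apart. Dividing a sample by its size factor keeps the ranks of genes within that sample. Ranks of group means can change, as scaled Phgdh (31.2) stood above scaled Gldc (30.5) in C3G null cells.

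Around the 10 genes, 79 further genes were listed by pathway, and 63 of them were tested. Of these, 9 were called higher, 8 lower and 46 were not called, with a median log2 fold change of 0.07, beside 14.1% higher and 16.6% lower among all tested genes. At an unadjusted p under 0.05 there were 20 higher and 11 lower, where the share of all tested genes was not counted. As deposited limma called 0 higher and 29 lower, beside 1.45% higher and 56.8% lower among all tested genes on that scale. Leaving out samples changed the rises more than the falls. The 9 rises became 4 without WT replicate 1, 2 without WT replicate 2, 10 without WT replicate 3, 5 without C3G null replicate 1 and 2 when C3G null replicate 2 was left out. Of the 9 rises 1, and of the 8 falls 4 (Sfxn3, Folr1, Atf5 and Sesn2), were called in each of these fits.

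Among 12 transport genes tested, 2 were higher and 2 lower, beside 14.1% and 16.6% of all tested genes. As deposited 0 were higher by limma and 8 lower, beside 1.45% and 56.8% of all tested genes on that scale. Folr1, the folate receptor, fell from 44.0, 52.6 and 52.1 scaled TPM in WT to 29.1 and 26.9 in C3G null cells (log2 fold change -0.80, adjusted p = 0.00294 from limma), and as deposited it was lower as well (-1.48). Sfxn3, a sideroflexin of the mitochondrial membrane, was lower at -0.52 (adjusted p = 0.00652) from 1.43, 1.26 and 1.22 scaled TPM in WT to 0.647 and 0.574. Higher were Slc38a2, an amino acid transporter of the plasma membrane (0.35, adjusted p = 0.0131), and Slc25a32, the mitochondrial folate carrier (0.30, adjusted p = 0.0373). For both, the C3G null samples overlapped WT as deposited, where the log2 fold changes were -0.33 and -0.27. Slc38a2 lost its call without WT replicate 2 (adjusted p = 0.0611) or C3G null replicate 2 (0.0571). Slc25a32 kept it only when C3G null replicate 1 was the sample left out, with the highest adjusted p without C3G null replicate 2 (0.141).

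The methionine cycle and transsulfuration list had 1 rise and 2 falls among 9 tested genes, and this count, like the 1 rise each of the purine list and the serine and glycine use list below, stands beside 14.1% higher and 16.6% lower among all tested genes. Cbs, which joins serine to homocysteine, fell from 3.12, 2.62 and 2.33 scaled TPM in WT to 1.6 and 1.40 in C3G null cells (log2 fold change -0.56, adjusted p = 0.0121 from limma), without a call when C3G null replicate 2 was left out (adjusted p = 0.0688). Mtr, methionine synthase, fell from 7.43, 7.12 and 7.33 to 5.25 and 5.73 (-0.35, adjusted p = 0.0102), and just missed the threshold without C3G null replicate 1 (adjusted p = 0.0501). Mat2b, the regulatory subunit of methionine adenosyltransferase, was higher (0.34, adjusted p = 0.0188). In both falls the groups were apart on both scales, and the rise of Mat2b turned to -0.33 as deposited and was not called without WT replicate 2 (adjusted p = 0.0758) or C3G null replicate 1 (0.0777). Of the 6 genes of purine synthesis, Atic, which carries out the last steps with a folate-bound formyl group, was the one called, higher at 0.31 (adjusted p = 0.0441 from limma), and its call ended with any sample but WT replicate 3 left out (without C3G null replicate 2, adjusted p = 0.154), as deposited -0.37. Of 10 tested genes that use serine or glycine, Grhpr, a glyoxylate and hydroxypyruvate reductase, was the one called, also higher (0.34, adjusted p = 0.0425, as deposited -0.29), and it too kept its call only in the fit without WT replicate 3 (without C3G null replicate 1, adjusted p = 0.158).

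ATF4 is a transcription factor known to induce serine synthesis genes when amino acids run short. Atf4 itself had 37.5, 38.0 and 35.6 TPM as deposited in WT and 21.7 and 33.6 TPM in C3G null cells, and 28.1, 31.1 and 32.2 against 35.1 and 37.1 after scaling. The C3G null samples were below WT on the first scale and above it on the second, with a scaled log2 fold change of 0.24 that was not called (adjusted p = 0.0738 from limma). Correcting for length and GC content left Atf4 at 0.24 and brought it just past the threshold (adjusted p = 0.0464 from limma). In the list of ATF4 and its amino acid response targets, 2 of 12 tested genes were higher and 3 lower, beside 14.1% and 16.6% of all tested genes. Atf5, a related factor, fell from 9.30, 9.93 and 9.26 scaled TPM in WT to 3.90 and 3.55 in C3G null cells (-1.15, adjusted p = 0.00031). Sesn2 (-0.49, adjusted p = 0.00286) and the asparagine synthetase Asns (-0.34, adjusted p = 0.0173) were also lower, Asns at 77.0, 78.1 and 82.2 scaled TPM in WT and 63.1 and 61.4 in C3G null cells. The groups were apart for all 3 on both scales, and the call of Asns ended without WT replicate 2 (adjusted p = 0.0684) or either C3G null sample (0.0518 and 0.0706). Ddit3 (0.46, adjusted p = 0.0157) and Ddit4 (0.27, adjusted p = 0.0283) were higher after scaling, and as deposited their values were -0.07 and -0.39. Neither was called without C3G null replicate 1 (adjusted p = 0.0618 and 0.0975) or C3G null replicate 2 (0.0691 and 0.0711). Ddit4 also lost its call without WT replicate 1 (0.0592) or WT replicate 2 (0.0949).

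Promoter windows of 300 bases were found for all 10 genes, 11 in all with the 2 of Psat1, and were searched on both strands. The core of the element bound by C/EBP and ATF factors, TGATGNAA, was in 0 of the 11 windows and in 3.97% of all 32851 windows of the table. The E box CACGTG was in 1 of the 11, that of Gcat, and in 7.15% of all windows. A match is a description of the sequence, and binding was not tested. The window of Gcat, the gene with the largest rise, is shown with the E box in capitals, which begins at base 3 of the transcript, on the plus strand at chr15:79030624-79030923.
Gcat start: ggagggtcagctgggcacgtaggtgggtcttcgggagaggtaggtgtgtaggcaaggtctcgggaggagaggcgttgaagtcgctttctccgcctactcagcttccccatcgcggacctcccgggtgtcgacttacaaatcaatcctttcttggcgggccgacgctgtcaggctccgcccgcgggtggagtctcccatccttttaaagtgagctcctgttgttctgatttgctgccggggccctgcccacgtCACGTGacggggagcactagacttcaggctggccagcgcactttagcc

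The genes with the most similar profiles over the 5 samples were sought among 6872 genes with a mean of at least 5 TPM, by Euclidean distance between log2 values centred on the WT mean. Nearest to Gcat were Cenpm (distance 0.0872), Cops9 (0.116) and Pycard (0.122). Cenpm, a centromere protein gene, had 11.8, 12.2 and 12.3 TPM as deposited in WT and 12.6 and 15.5 TPM in C3G null cells. Its level was below that of Gcat in each sample, since the distance compares profiles and not levels. Nearest to Shmt2 were Arfgap1 (0.0480), Ncapd2 (0.0503) and Qk (0.0572). Ncapd2, a condensin subunit gene, had 33.4, 29.6 and 27.8 TPM as deposited in WT and 14.5 and 18.6 TPM in C3G null cells. None of these 6 genes belongs to the lists above.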

How the data were processed

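Bulk RNA-seq of 3 WT and 2 C3G null samples was analysed. The authors deposited TPM per Ensembl transcript, made from paired-end reads aligned to GRCm38. The submitters' processing notes list bcl2fastq 2.20, FastQC 0.11.7, STAR 2.5.1b and RSEM 1.2.31, and strandedness is not given in the sources used here. The authors tested genes with DESeq2, which needs counts. The table has no columns of the authors' own comparisons. Of 142647 transcripts, 141524 were matched to GENCODE M21, and TPM were summed by symbol (113 symbols hold more than 1 gene identifier, Gcat among them). Depth per sample is unknown.

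TPM divided by size factors from 12379 genes above 0 in all samples were tested with limma 3.58.1 (R 4.3.3, mean-variance trend) on log2(value + 1). The fit was also run on simulated data with the same noise for all genes and the same shift in both C3G null samples. The real C3G null libraries differed from each other (size factors 0.619 and 0.906), so the simulation does not cover such differences or trends with length and GC content. Confidence intervals are 95%. Alternatives were TPM as deposited, quantile normalization, protein-coding TPM rescaled, pseudocounts of 0.1 and 5, filters of 5 TPM or none, no trend, a per-sample loess correction for length and GC content (span 0.5), a replicate block, both together, and each sample left out. Summaries used Python 3.11.15 with pandas 2.3.3 and scipy 1.17.1, and plots matplotlib 3.10.9. Promoter sequences are from RefSeq, GRCm38.p6.

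Named genes were all members, Rapgef1, Tdh, Atf4, the largest called changes of each pathway list (up to 3 per direction), and the 3 genes nearest in profile to the members with the largest rise and the lowest fold change. Marker lists were given by counts and sums. A called pathway gene is counted but not reported here. Overlapping genes, single marker genes, genes not called, the antisense gene and gene pairs named beyond this were chosen after their values were seen. The members and lists were chosen with earlier results of these data known.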

Additional observations from a re-analysis of the deposited data

How the results depend on the processing

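Of 160 fold changes of the 10 genes under 16 alternatives, 132 kept their direction and side of the threshold. Gcat was called in 15 of 16 (log2 fold change 0.22 to 0.97, adjusted p 0.000851 to 0.430), Gldc in 15 (-0.17 to 0.67) and Mthfd1l in 9 (-0.34 to 0.45).

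With TPM as deposited, 0 genes of the 10 were called higher and 4 lower, of all genes 181 higher and 7109 lower, and of the other pathway genes 0 higher and 29 lower. Log2 fold changes were then 0.22 for Gcat, -0.17 for Gldc, -0.45 for Shmt1, -0.86 for Shmt2, -0.74 for Mthfd1, -0.52 for Mthfd2, -0.34 for Mthfd1l, -0.79 for Phgdh, -0.53 for Psat1 and -0.66 for Psph, and those of called or named genes that changed sign were -0.44 for Atf4, -0.35 for Gcsh, -0.33 for Slc38a2, -0.27 for Slc25a32, -0.33 for Mat2b, -0.37 for Atic, -0.29 for Grhpr, -0.0729 for Ddit3 and -0.39 for Ddit4. The median of all genes was then -0.55. With protein-coding TPM rescaled, which left a median of -0.20, 2 of the 10 genes were higher and 3 lower, of all genes 702 higher and 3753 lower, and of the pathway genes 1 higher and 17 lower, with Mthfd1l at 0.11 (not called), Mthfd2 at -0.10, Psat1 at -0.0619, Shmt2 at -0.41, Mthfd1 at -0.28, Phgdh at -0.34, Gldc at 0.30 (adjusted p = 0.0490), Shmt1 at 0.0092 and Psph at -0.27. Quantile normalization kept 3 higher and 0 lower by limma, with Psat1 at 0.0015, Shmt1 at 0.10, Mthfd1 at -0.20 and Phgdh at -0.23, and ended the calls of Slc38a2, Gcsh, Atic and Ddit4. A filter of 5 TPM left 7525 genes, 1145 of them lower. Without a filter Mthfd1l missed the threshold (0.31, adjusted p = 0.0570), as did Slc25a32 (0.0879), Atic (0.084) and Grhpr (0.0966). Pathway genes called higher then numbered 6. With length and GC correction Mthfd1 was 0.0026, Shmt2 -0.08, Phgdh -0.05 and Mthfd2 0.06, none of them called. That correction ended the call of Gcsh (0.23, adjusted p = 0.0502 from limma), and Atf4 was called higher (0.24, adjusted p = 0.0464 from limma).

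Whether samples were paired is not given in the sources used here. The replicate block used the numbers of the sample titles, while the library name of C3G null 2 carries the number 3, so block values rest on that choice. With a replicate block, 1489 genes were higher and 1816 lower, Mthfd1l was not called (0.34, adjusted p = 0.0533), Psph was 0.0037, and Asns (adjusted p = 0.0833), Ddit4 (0.0698), Slc38a2 (0.0514) and Slc25a32 (0.0970) lost their calls. With a replicate block and length and GC correction, Mthfd1 was 0.0276 and Phgdh 0.0134, and Sesn2 (-0.24, adjusted p = 0.101), Mtr (0.0958), Mat2b (0.0547), Ddit3 (0.0712), Gcsh (0.0665), Slc25a32 (0.117) and Rapgef1 (-0.12, 0.345) lost their calls.

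With each sample left out, genes called numbered 909 to 1579 higher and 1385 to 1880 lower, and pathway genes called higher 2 to 10. Log2 fold changes ranged from 0.24 to 0.39 for Mthfd1l, from -0.12 to 0.0205 for Mthfd1 and from -0.17 to 0.0376 for Psph. Without a C3G null sample, the remaining one was assumed to vary like WT. The cause of these changes was not tested. TPM keep no depth, so the counting error of weak genes is unknown, and 5 samples limit the precision of all intervals.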
